A study of Mus musculus with 7 samples.

Results

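The 9 genes described here encode proteins of nerve cells that common insecticides bind. They are the cholinesterases Ache and Bche, the nicotinic acetylcholine receptor subunits Chrna4, Chrna7 and Chrnb2, the voltage-gated sodium channel pores Scn8a, Scn2a and Scn3a, and the sodium channel beta subunit Scn3b. They were chosen by name and found by Ensembl gene ID. Events stood under the ID of 8 of the 9, out of 13699 genes listed in the series, and Chrnb2 had none. The 8 genes had 67 distinct events of 131883 in the series, made up of 19 transcript starts, 11 transcript ends and 37 splicing events.

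Total RNA was sequenced from wild-type neural cells grown from mouse embryonic stem cells (line B6G-2), to compare what insecticides do to developing nerve cells. There was 1 library each for cells exposed for 1 day to chlorpyrifos, DDT, rotenone, carbaryl, deltamethrin or imidacloprid, and 1 for control cells. All 7 cultures came from the same stem cell line, which formed embryoid bodies for 6 days and then progenitors under bFGF and EGF. Day 14 progenitors were put into a differentiation medium (BrainPhys with B27) for the exposure. The labels give no dose, no vehicle and no batch, and they call the tissue brain although the cells were made in culture.

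Each value is in FPKM, fragments scaled to transcript length and to the library's mapped fragments, and belongs to 1 event. An event is the use of a first exon (a start), of a last exon (an end), or of an alternative exon or intron. Only events above 0 are listed, so an event absent from a library is called not listed, which does not show that it was not made. The libraries listed between 93977 and 95776 distinct events each. The depth is unknown, and since each group is 1 library, nothing below could be set against a spread between replicates or tested. Positions are on GRCm38, and transcript names are those of GENCODE M21.

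Acetylcholinesterase, made from Ache, ends cholinergic signals by splitting acetylcholine at synapses, and organophosphates such as chlorpyrifos (through its oxon) and carbamates such as carbaryl block it. Butyrylcholinesterase, made from Bche, splits a wider range of esters and is also expressed by glia and progenitor cells. Nicotinic receptors are ion channels opened by acetylcholine, and imidacloprid was designed against those of insects. DDT and the pyrethroid deltamethrin hold sodium channels open. Rotenone blocks complex I of mitochondria and has none of these 9 proteins as its main target.

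Sodium channel genes carry pairs of exons of which a transcript takes either one. In Scn8a, exon 18 exists as 18A, which completes the channel, and 18N, which holds a stop codon. Both are shown because Scn8a results turn on them. They were read from GENCODE M21 transcripts, 5′ to 3′ on the plus strand. Capitals mark the stop codon of exon 18N in the reading frame.
Scn8a exon 18N, chr15:101023839-101023906: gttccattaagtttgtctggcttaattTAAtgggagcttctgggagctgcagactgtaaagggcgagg
Scn8a exon 18A, chr15:101024261-101024383: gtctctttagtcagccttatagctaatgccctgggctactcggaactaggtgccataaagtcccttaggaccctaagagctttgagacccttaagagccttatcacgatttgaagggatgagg

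Exon 18N is 68 bases long, which is no multiple of 3, and its stop begins at base 28 of the exon. Exon 18A is 123 bases long and holds 0 stops in frame.

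Scn3b was the most abundant of the 8 genes and Scn2a the least. By the mean over the 7 libraries of the start or the end total, whichever averaged higher, which is per length and can be compared between genes, the order was Scn3b (6.25 FPKM), Chrna4 (3.82), Scn8a (3.29), Bche (3.15), Chrna7 (2.28), Scn3a (1.53), Ache (1.07) and Scn2a (0.681). Between neighbours in that order, only Scn3b and Chrna4 had ranges over the libraries that did not overlap, with Scn3b higher in 7 of 7. Scn3b stood above 48.1% of 13764 genes with a matched start or end and Scn2a above 18.8%, so all were genes of low to middle level. In RNA from whole cultures, fewer cells of a type and less RNA per cell cannot be told apart.

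**Figure D1:**
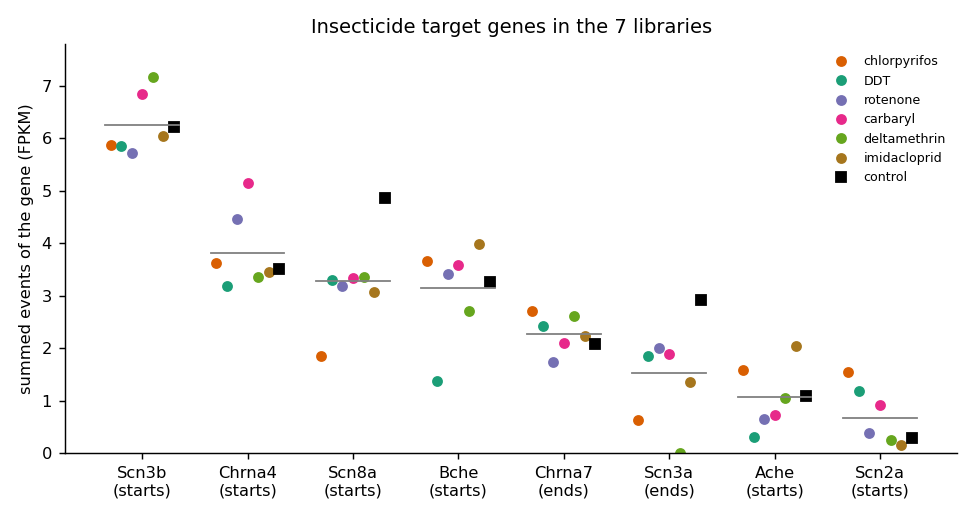
Level of each of the 8 genes in the 6 exposed libraries and in control, as its start or end total, whichever averaged higher, in FPKM, 1 point a library with a line at the mean of the 7. Scn3b lies highest and apart from Chrna4, control is the highest point for Scn8a and Scn3a, and DDT the lowest for Bche and Ache.

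The cultures had markers of neurons, progenitors, astrocytes and fibroblasts, and none of blood or microglia was found. Here found means a start or end matched to exactly 1 gene, which a gene of 1 exon cannot have. Of 9 neuron markers 8 were found, and their summed FPKM was 218 to 268 in the exposed libraries and 228 in control. Of 6 progenitor markers, the 5 with an annotated gene of several exons were found. Among them Vim had 995 to 1233 FPKM in the exposed libraries and 1075 FPKM in control. Fabp7, read from starts only, varied most, at 66.2 FPKM with rotenone to 2521 FPKM with imidacloprid and at 2620 FPKM in control. All 7 astrocyte markers were found. Slc1a3, Gja1 and Aldh1l1 averaged 100.1, 39.0 and 33.8 FPKM over the 7 libraries, while Gfap, Aqp4 and S100b were under 1 FPKM in every library. All 5 fibroblast markers were found, with a summed FPKM of 21.2 to 29.8 in the exposed libraries and 24.1 in control. Of 5 cholinergic neuron markers, 4 have an annotated gene of several exons, and only Isl1 was found. It had 0.886 to 1.85 FPKM in the exposed libraries and 1.9 FPKM in control. Chat and Slc5a7, which make acetylcholine and recover its choline, had no matched start or end, which does not show that they were not made. Of 5 muscle markers, a tissue rich in Ache, only Des was found, at 0 to 0.600 FPKM in the exposed libraries and 0 FPKM in control. None of 4 blood or 3 microglia markers had a matched start or end. The part that such cells have in the results below was not tested.

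Ache was transcribed at about 1 FPKM, lowest with DDT and highest with imidacloprid. Its start total was 1.59 FPKM with chlorpyrifos, 0.319 with DDT, 0.652 with rotenone, 0.727 with carbaryl, 1.06 with deltamethrin and 2.04 with imidacloprid, against 1.10 FPKM in control. Its end total was 1.34 FPKM with chlorpyrifos, 0.239 with DDT, 0.537 with rotenone, 0.676 with carbaryl, 0.954 with deltamethrin and 1.50 with imidacloprid, against 1.03 FPKM in control. Both ends of the gene therefore placed the libraries in nearly the same order, with DDT, rotenone and carbaryl below control and chlorpyrifos and imidacloprid above. The mean of starts and ends over the 7 libraries, 0.983 FPKM, was just under the minimum of 1 FPKM for a fold, so Ache stands outside the counts of 2-fold genes below. On the log2(FPKM + 1) scale, which understates changes of low genes, its differences from control ran from -0.69 with DDT to 0.43 with imidacloprid.

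Ache (ENSMUSG00000023328) lies on chromosome 5 from 137287519 to 137294466, plus strand, and 5 events were listed of its 9 annotated transcripts. It had 2 starts that differ in whether the first intron is kept. The spliced start, an 84-base first exon ending at 137288367 (Ache-201, Ache-202 and Ache-209), had 1.34 FPKM with chlorpyrifos, 0.239 with DDT, 0.00237 with rotenone, 0.676 with carbaryl, 0.260 with deltamethrin and 2.04 with imidacloprid, against 0.296 FPKM in control. The other start is a 2825-base first exon ending at 137291101, which belongs to the retained-intron transcript Ache-208. It had 0.248 FPKM with chlorpyrifos, 0.0802 with DDT, 0.650 with rotenone, 0.0509 with carbaryl and 0.800 with deltamethrin, was not listed with imidacloprid, and had 0.801 FPKM in control. The spliced start thus held 84.4% of Ache starts with chlorpyrifos, 74.8% with DDT, 0.364% with rotenone, 93.0% with carbaryl, 24.6% with deltamethrin and 100% with imidacloprid, against 27.0% in control. By this share, rotenone, deltamethrin and control were low in the spliced start and the other libraries high. In FPKM, however, DDT had less of the spliced start than deltamethrin and control.

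The single Ache end listed in all 7 libraries was the exon from 137294117 to 137294466, which carries the tail of the synaptic (T) enzyme. Ends of the read-through and glycolipid-anchored enzymes are not separate transcripts in the annotation used, and they were not analysed here. An exon of 485 bases (137291479 to 137291963) was listed as the alternative form in 6 of the 7 libraries, at 0.206 FPKM with DDT to 1.34 FPKM with chlorpyrifos, and was not listed with imidacloprid. Its 221-base form (Ache-209) was listed with DDT only, at 0.0328 FPKM.

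Bche was made as nearly a single form, and its level was lowest with DDT. Starts and ends gave the same total in each library, 3.67 FPKM with chlorpyrifos, 1.38 with DDT, 3.41 with rotenone, 3.59 with carbaryl, 2.72 with deltamethrin and 3.99 with imidacloprid, against 3.26 FPKM in control. The DDT library lay below the other 6, which spanned 2.72 to 3.99 FPKM. The DDT value was 0.424 of control as a plain ratio and -0.84 as a difference of log2(FPKM + 1), short of 2-fold on that scale. Among 1507 usable genes with means of 1 to 5 FPKM, 2.12% were as low or lower with DDT. The other differences from control ran from -0.20 with deltamethrin to 0.23 with imidacloprid.

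Bche (ENSMUSG00000027792) lies on chromosome 3 from 73635808 to 73708415, minus strand, with 4 annotated transcripts and 6 events listed. It had a single start, ending at 73708135. The last exon of the full-length transcript Bche-201 (73635808 to 73640041) took, of the ends of Bche-201 and Bche-202 together, 95.5% with chlorpyrifos, 94.4% with DDT, 95.8% with rotenone, 96.8% with carbaryl, 90.2% with deltamethrin and 95.9% with imidacloprid, against 96.1% in control. The end of the retained-intron transcript Bche-202 (73648416 to 73648803) took nearly all of the rest, 0.0778 FPKM with DDT to 0.265 FPKM with deltamethrin, against 0.127 FPKM in control. An end of Bche-203 was listed with rotenone at 0.00508 FPKM and with imidacloprid at 0.00691 FPKM. A 56-base exon (73706539 to 73706594) was skipped in all 7 libraries and also included with rotenone (13.4%) and imidacloprid (13.4%). So the form these cells made in every library was the one without the 56-base exon and with the full-length end.

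**Figure D2:**
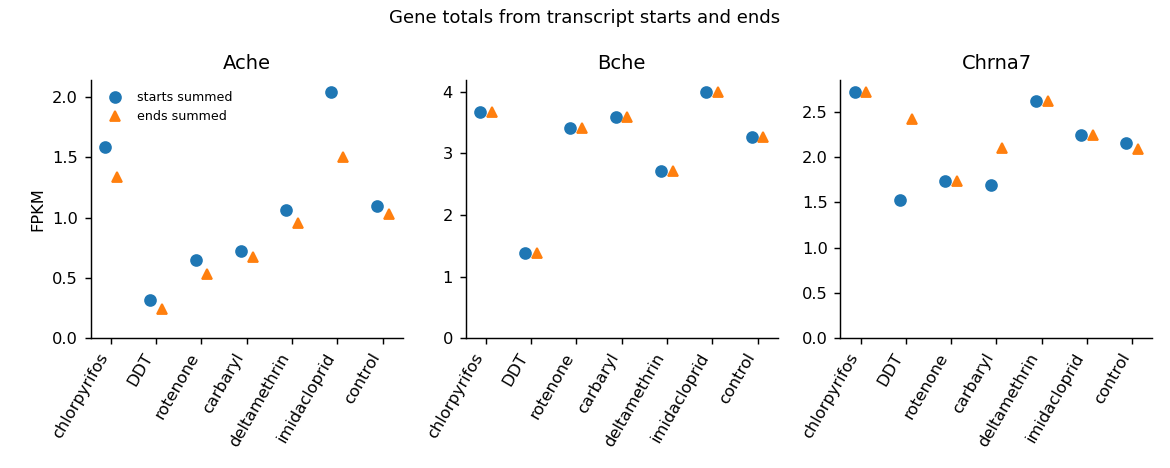
Start and end totals in FPKM of Ache, Bche and Chrna7 in the 6 exposed libraries and in control. Starts and ends lie together for Bche, and DDT is the lowest library for both cholinesterases.

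Among the nicotinic receptor subunits, Chrna4 and Chrna7 were each made from 1 principal start, and Chrnb2 could not be read under its own ID. Chrna4 encodes the alpha subunit that joins beta 2 in the most common nicotinic receptor of brain. Its start total was 3.63 FPKM with chlorpyrifos, 3.18 with DDT, 4.47 with rotenone, 5.15 with carbaryl, 3.36 with deltamethrin and 3.46 with imidacloprid, against 3.51 FPKM in control. Carbaryl and rotenone were high, and the other libraries lay within 3.18 to 3.63 FPKM. No end of Chrna4 was listed, so it has no fold.

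Chrna4 (ENSMUSG00000027577) lies on chromosome 2 from 181018380 to 181043546, minus strand, with 5 annotated transcripts and 4 events listed. The start ending at 181038992 (Chrna4-201, Chrna4-202 and Chrna4-204) was listed in all 7 libraries. A start further upstream (181043387 to 181043546, Chrna4-203) was listed with rotenone only, at 0.786 FPKM or 17.6% of that library's starts. A 110-base exon (181033920 to 181034029) was listed in all 7, and its 133-base form (Chrna4-204) with deltamethrin only, at 0.0914 FPKM.

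Chrna7 encodes the alpha 7 subunit, which forms receptors from 5 like subunits and lets calcium through. Its start total was 2.72 FPKM with chlorpyrifos, 1.53 with DDT, 1.74 with rotenone, 1.69 with carbaryl, 2.62 with deltamethrin and 2.25 with imidacloprid, against 2.16 FPKM in control. Its end total was 2.72 FPKM with chlorpyrifos, 2.42 with DDT, 1.74 with rotenone, 2.10 with carbaryl, 2.62 with deltamethrin and 2.25 with imidacloprid, against 2.09 FPKM in control. Chlorpyrifos and deltamethrin were highest at both ends of the gene. From the mean of both totals, the differences of log2(FPKM + 1) from control ran from -0.19 with rotenone to 0.25 with chlorpyrifos. With DDT the direction depended on the end read, -0.32 from starts and 0.15 from ends.

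Chrna7 (ENSMUSG00000030525) lies on chromosome 7 from 63098692 to 63212569, minus strand, with 2 annotated transcripts and 4 events listed. The single start (63212422 to 63212569) and the end of Chrna7-201 (63095278 to 63099742) were listed in all 7 libraries. The end of Chrna7-202 was listed at 0.00471 FPKM with rotenone and at 0.00465 FPKM with imidacloprid. A junction of Chrna7-201 leaves out a 333-base stretch (63141463 to 63141795), which lies within the last exon of Chrna7-202. This junction was listed in all 6 exposed libraries, at 1.53 FPKM with DDT to 2.72 FPKM with chlorpyrifos. It was not listed in control. The start and the full-length end were listed in control all the same.

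Chrnb2 encodes the beta 2 subunit of the receptor with alpha 4. It lies on chromosome 3 from 89746195 to 89764632, minus strand (ENSMUSG00000027950). After the values had been seen, an end whose inner boundary is that of the last exon of Chrnb2-201 and Chrnb2-202 was found under the ID of a neighbouring gene, 4632404H12Rik. That end (89752433 to 89757270) had 2.92 FPKM with chlorpyrifos, 4.72 with DDT, 3.72 with rotenone, 3.28 with carbaryl, 3.44 with deltamethrin and 2.97 with imidacloprid, against 3.08 FPKM in control. DDT was the highest of the 7. The same stretch is overlapped on the plus strand by an end of Adar (89750929 to 89753446) at 9.25 to 12.1 FPKM in the exposed libraries and 9.94 FPKM in control. Whether strand was used in the counting is not stated in the sources used here. By its splice site and strand the end matches Chrnb2 and no other annotated gene, but the part of overlapping Adar RNA in its value was not tested.

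Of the sodium channel pores, Scn8a was the most abundant and Scn2a the least. Scn8a encodes the channel NaV1.6 of nodes and initial segments of adult axons. Its start total was 1.86 FPKM with chlorpyrifos, 3.30 with DDT, 3.19 with rotenone, 3.34 with carbaryl, 3.37 with deltamethrin and 3.07 with imidacloprid, against 4.86 FPKM in control. Control was highest and chlorpyrifos lowest. Among 5036 genes with start totals of 1 to 10 FPKM, control was the highest library in 14.6%, near the share of 1 library in 7.

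Scn8a (ENSMUSG00000023033) lies on chromosome 15 from 100869858 to 101045938, plus strand, and 18 events were listed of its 20 annotated transcripts. Its 7 starts include 2 at the head of the gene and 1 at the first coding exon, and which of these 3 was listed changed from library to library. The first of them ends at 100870743 and had 0.378 FPKM with chlorpyrifos, 0.247 with rotenone, 1.64 with carbaryl, 1.63 with deltamethrin and 0.0344 with imidacloprid, and was not listed with DDT or in control. The next, ending at 100871068, had 2.91 FPKM with DDT, 2.50 with rotenone, 1.19 with carbaryl and 0.770 with deltamethrin, was not listed with chlorpyrifos or imidacloprid, and had 3.81 FPKM in control. The third is the first coding exon used as a first exon (100936271 to 100936600), at 1.08 FPKM with chlorpyrifos and 2.24 FPKM with imidacloprid, and it was not listed elsewhere, control included. Chlorpyrifos and imidacloprid were thus the only libraries in which this start was listed, which does not show that the others lacked it. Both of the other 2 starts lie upstream of the coding sequence.

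Of the 4 inner starts of Scn8a, 3 were listed in all 7 libraries. Those ending at 100955528 and 100957118 had at most 0.110 and 0.351 FPKM. The start at 100968596 to 100969242 had 0.0865 to 0.526 FPKM in the exposed libraries and 0.881 FPKM in control. A start at 101002293 to 101002373, which no annotated transcript holds, was listed with deltamethrin only, at 0.512 FPKM. The only end listed under Scn8a was that of the short transcript Scn8a-215 (100959603 to 100959635), at 0.0485 to 0.131 FPKM in the exposed libraries and 0.815 FPKM in control. The full-length end was not listed in any library, control included.

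The first start at the head of Scn8a, which ends at 100870743, and the start at its first coding exon differ in the letters of their promoters. For the start ending at 100871068 no promoter is shown. The first coding exon begins at 100936271 as a start and also as an inner exon, in a listed junction from 100870743. The pair of promoters is shown from 250 bases before to 50 bases after each annotated start, as RefSeq gives them on GRCm38, plus strand.
Scn8a promoter at the head of the gene, chr15:100870395-100870694: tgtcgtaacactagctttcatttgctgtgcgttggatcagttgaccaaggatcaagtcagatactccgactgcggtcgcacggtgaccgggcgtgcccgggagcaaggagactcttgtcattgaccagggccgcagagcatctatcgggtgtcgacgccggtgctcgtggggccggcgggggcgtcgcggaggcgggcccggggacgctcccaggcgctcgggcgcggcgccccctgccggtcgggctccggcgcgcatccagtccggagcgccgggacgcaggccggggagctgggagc
Scn8a promoter at the first coding exon, chr15:100936021-100936320: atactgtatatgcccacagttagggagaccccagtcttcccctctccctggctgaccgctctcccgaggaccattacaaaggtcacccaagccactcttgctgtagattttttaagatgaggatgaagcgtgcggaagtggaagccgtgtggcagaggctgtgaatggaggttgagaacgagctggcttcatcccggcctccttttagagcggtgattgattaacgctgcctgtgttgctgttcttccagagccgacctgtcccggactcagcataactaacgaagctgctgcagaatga

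The first holds 38 CG pairs and the second 12, where the median over 32851 promoters of this length was 7. Searched on both strands, neither holds TATAAA (in 13.62% of all promoters), GGGCGG (35.66%) or TTCAGCACC (0.37%). The searched letters do not overlap one another in these windows. Promoters were found in the RefSeq table for 7 of the 9 genes.

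At exon 18 of Scn8a, the form with a stop codon was listed in 4 libraries and the full channel's exon 18A in none as an included exon. Exon 18N had 0.0961 FPKM with chlorpyrifos, 2.11 with DDT and 1.09 with carbaryl, was not listed with rotenone, deltamethrin or imidacloprid, and had 1.53 FPKM in control. A junction without 18N and 18A (Scn8a-208) had 0.392 FPKM with chlorpyrifos and 1.26 FPKM with imidacloprid, and was not listed elsewhere, control included. Of the sum of 18N and that junction, which leaves out 18A and any form not listed, 18N was 19.7% with chlorpyrifos, 0% with imidacloprid and 100% with DDT and carbaryl, against 100% in control, with no value for rotenone and deltamethrin. The 1.53 FPKM of 18N in control stand beside a start total of 4.86 FPKM, so the 100% is no share of all Scn8a transcripts. No event that includes 18A was listed under Scn8a.

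**Figure D3:**
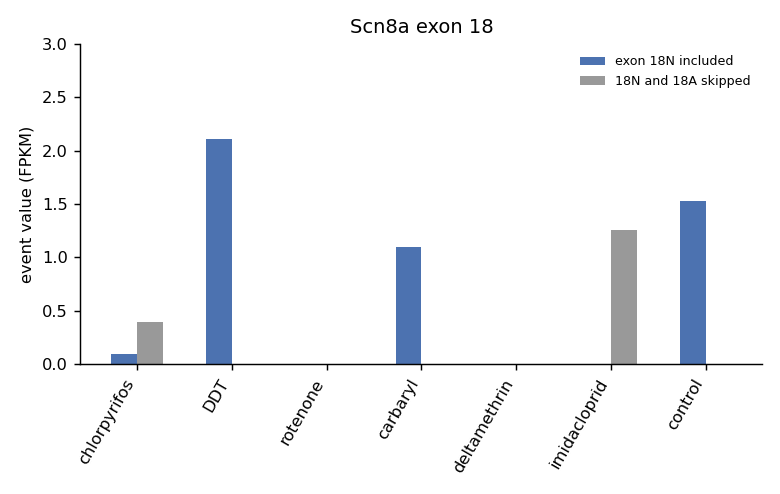
FPKM of the listed forms of Scn8a at exon 18 in the 6 exposed libraries and in control. Exon 18N is present with chlorpyrifos, DDT and carbaryl and in control, and the junction without exon 18 with chlorpyrifos and imidacloprid.

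A 357-base exon of Scn8a (100983689 to 100984045) was listed in every library but carbaryl, at 0.769 FPKM with chlorpyrifos to 2.09 FPKM with DDT and at 1.41 FPKM in control. With carbaryl the 387-base form stood in its place at 1.24 FPKM, and it was also listed with imidacloprid at 0.0873 FPKM. The 30 added bases are a multiple of 3 and hold 0 stops in frame. They are printed because carbaryl alone had only the longer form.
Scn8a exon extension, chr15:100984046-100984075: gtgaaaatagataaggcagctacagacagt

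A 150-base exon of Scn8a in the leading part of the gene (100899392 to 100899541) was listed as skipped in the 5 exposed libraries other than DDT, at 0.0344 FPKM with imidacloprid to 1.64 FPKM with carbaryl. It was listed as included in none. The values of the skip are those of the first start, so these events describe the same transcripts.

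Scn2a encodes NaV1.2, the first channel of young axons, and no library had more than 1.55 FPKM of its starts. Its start total was 1.55 FPKM with chlorpyrifos, 1.19 with DDT, 0.383 with rotenone, 0.926 with carbaryl, 0.254 with deltamethrin and 0.157 with imidacloprid, against 0.299 FPKM in control. Its end (65763634 to 65767447) had 0.769 FPKM with chlorpyrifos, 1.03 with rotenone, 0.816 with carbaryl, 0.843 with deltamethrin and 0.652 with imidacloprid, and was not listed with DDT or in control. Starts and ends placed the libraries in different orders, so no difference in level is given.

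Scn2a (ENSMUSG00000075318) lies on chromosome 2 from 65620771 to 65767447, plus strand, with 9 annotated transcripts and 10 events listed. The start ending at 65668814 (Scn2a-205 and Scn2a-209) was listed in all libraries but carbaryl, at 0.123 FPKM with deltamethrin to 1.42 FPKM with chlorpyrifos and at 0.299 FPKM in control. Carbaryl had instead a start at 65670445 to 65670762 (Scn2a-202), at 0.926 FPKM. An inner start (Scn2a-203) was listed with chlorpyrifos, rotenone and deltamethrin, at 0.0421 to 0.133 FPKM. The annotated start at the head of the gene (65620771 to 65621015) was listed in no library, control included. The promoters of the unlisted and the listed start are given below, from RefSeq on GRCm38, plus strand, with TATAAA in capitals.
Scn2a promoter at the head of the gene, not listed as a start, chr2:65620519-65620818: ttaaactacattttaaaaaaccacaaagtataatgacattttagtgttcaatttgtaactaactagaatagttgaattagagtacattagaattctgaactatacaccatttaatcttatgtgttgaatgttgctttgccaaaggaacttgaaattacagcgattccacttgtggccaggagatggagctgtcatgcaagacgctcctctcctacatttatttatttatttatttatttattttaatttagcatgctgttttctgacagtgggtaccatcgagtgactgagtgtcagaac
Scn2a promoter at the listed start, chr2:65668436-65668735: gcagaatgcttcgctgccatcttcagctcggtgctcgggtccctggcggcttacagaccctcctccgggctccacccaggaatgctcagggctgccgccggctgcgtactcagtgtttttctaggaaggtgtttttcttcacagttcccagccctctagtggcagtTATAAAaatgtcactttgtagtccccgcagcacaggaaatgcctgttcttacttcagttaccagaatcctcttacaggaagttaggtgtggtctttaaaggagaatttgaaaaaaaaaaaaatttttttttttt

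The promoter of the unlisted start holds 3 CG pairs and that of the listed start 9, with 1 TATAAA. The junction that leaves out an exon of the transcripts Scn2a-207 and Scn2a-208 (65718938 to 65719021 or 65719030), which are annotated for nonsense-mediated decay, had 0.758 FPKM with chlorpyrifos, 1.23 with DDT, 1.08 with carbaryl, 0.533 with deltamethrin and 0.721 with imidacloprid, and was not listed with rotenone or in control. Its inclusion was not listed. A junction of the protein-coding Scn2a-201, Scn2a-202 and Scn2a-205 leaves out a 135-base exon (65708918 to 65709052). It was listed with chlorpyrifos (0.666 FPKM) and deltamethrin (0.731 FPKM). A stretch from 65711743 to 65711824 was listed as a kept intron with chlorpyrifos (0.666 FPKM). It lies within an annotated exon of the same transcripts. The removal of another intron, annotated in these transcripts and Scn2a-204, was listed with DDT (0.966 FPKM).

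Scn3a encodes NaV1.3, a channel of the embryonic brain. Its single start (65567266 to 65567551) had 0.639 FPKM with chlorpyrifos, 1.36 with DDT, 1.56 with rotenone and 0.612 with imidacloprid, was not listed with carbaryl or deltamethrin, and had 1.07 FPKM in control. Its single end (65456888 to 65461737) had 0.639 FPKM with chlorpyrifos, 1.86 with DDT, 2.02 with rotenone, 1.89 with carbaryl and 1.36 with imidacloprid, was not listed with deltamethrin, and had 2.93 FPKM in control. Control had the highest end total, and among 4033 genes with end totals of 1 to 10 FPKM control was highest in 14.5%.

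Scn3a (ENSMUSG00000057182) lies on chromosome 2 from 65457118 to 65567627, minus strand, with 4 annotated transcripts and 7 events listed. An exon bounded at 65508662 had 4 forms, of which the 201-base one is annotated and the 210-, 214- and 297-base ones are not. The annotated form was listed with chlorpyrifos (0.639 FPKM) and rotenone (0.558 FPKM) only. The 297-base form was listed with rotenone (0.556 FPKM), carbaryl (2.0 FPKM), deltamethrin (0.0932 FPKM) and imidacloprid (0.102 FPKM), and not in control. The 214-base form was listed with rotenone (0.533 FPKM), carbaryl (0.833 FPKM) and deltamethrin (0.0988 FPKM), and in control (1.22 FPKM). Over the annotated form, the 210- and 297-base forms add 9 and 96 bases, both multiples of 3, and the 214-base form adds 13, which is not. Rotenone had all 4 forms at 0.533 to 0.558 FPKM. A junction past several exons (65487854 to 65490852) is the annotated one of the protein-coding Scn3a-201 and Scn3a-202. It had 0.639 FPKM with chlorpyrifos, 1.86 with DDT, 2.02 with rotenone and 2.65 with carbaryl, and 1.04 FPKM in control.

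Scn3b encodes a beta subunit, a small membrane protein that binds the pore and sets its gating. It had the steadiest level and a start that changed. Its start total was 5.87 FPKM with chlorpyrifos, 5.85 with DDT, 5.73 with rotenone, 6.86 with carbaryl, 7.18 with deltamethrin and 6.04 with imidacloprid, against 6.23 FPKM in control. The highest library was 1.25 times the lowest, where the median over genes with 1 to 10 FPKM was 1.63. The upstream start (40269217 to 40269602) had 5.54 FPKM with chlorpyrifos, 2.44 with DDT, 3.51 with rotenone, 6.75 with carbaryl, 3.02 with deltamethrin and 3.73 with imidacloprid, against 3.37 FPKM in control. The downstream start (40269687 to 40270047, Scn3b-202) had 0.334 FPKM with chlorpyrifos, 3.41 with DDT, 2.22 with rotenone, 0.108 with carbaryl, 4.16 with deltamethrin and 2.32 with imidacloprid, against 2.86 FPKM in control.

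The upstream start held 94.3% of Scn3b starts with chlorpyrifos, 41.8% with DDT, 61.2% with rotenone, 98.4% with carbaryl, 42.1% with deltamethrin and 61.7% with imidacloprid, against 54.1% in control. Chlorpyrifos and carbaryl, the 2 cholinesterase inhibitors among the 6, lay apart from the other 5 libraries, which spanned 41.8% to 61.7%. Of genes with start totals of 1 to 10 FPKM, 26.4% moved a start share by 20 points or more with chlorpyrifos and 27.8% with carbaryl, so a move of that kind was common. The pairing of these 2 libraries was seen after the values and was not tested.

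**Figure D4:**
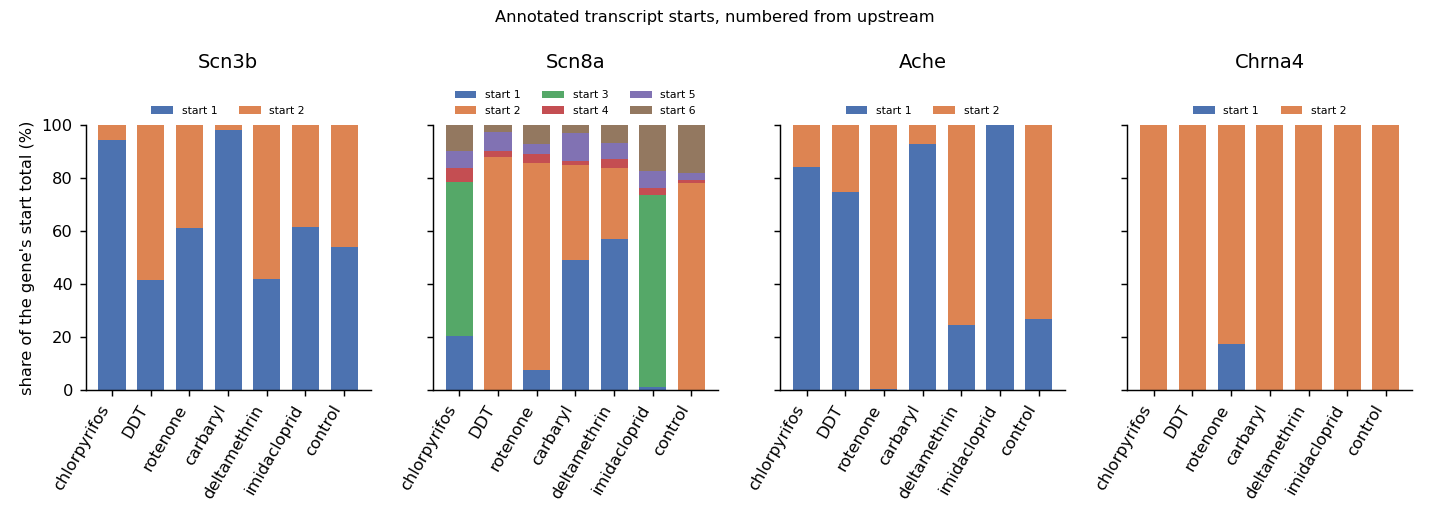
Share of each listed start among a gene's starts, in percent, for Scn3b, Scn8a, Ache and Chrna4 in the 6 exposed libraries and in control, numbered from the upstream side by the splice site that follows the first exon, without the unannotated Scn8a start of the deltamethrin library. The upstream start of Scn3b takes nearly all with chlorpyrifos and carbaryl, and start 3 of Scn8a, its first coding exon, appears with chlorpyrifos and imidacloprid only.

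Scn3b (ENSMUSG00000049281) lies on chromosome 9 from 40269217 to 40291618, plus strand, with 9 annotated transcripts and 13 events listed. Its main end was listed in no library. Of 2 minor ends, that of Scn3b-209 (40288615 to 40288809) was listed with imidacloprid (0.580 FPKM), and that of Scn3b-207 (40289222 to 40289515) with DDT (0.108 FPKM), rotenone (0.759 FPKM) and control (0.186 FPKM). The 164-base exon from 40277068 to 40277231 was included in all 7 libraries, at 4.67 FPKM with rotenone to 6.40 FPKM with deltamethrin and at 6.16 FPKM in control. Its 150-base form (Scn3b-205) reached 0.469 FPKM with deltamethrin, and its 160-base form (Scn3b-206) 0.658 FPKM with rotenone, and neither was listed in control. With chlorpyrifos a junction without the exon, which no annotated transcript has, was listed at 0.550 FPKM.

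Over all 8 genes, 19 of the 67 events were listed in all 7 libraries and 15 in 1 library only. There were 9 events that match no annotated transcript. Some events repeat a junction. The Scn3b junction without its exon, listed with chlorpyrifos, counts once for each form of that exon. No shares over the 131883 events of the series stand beside these counts, so they are not read as particular to the targets. Among the forms listed in every library were the T-tailed Ache end with the spliced start, the full-length Bche form without its 56-base exon, the principal start of Chrna4 with its 110-base exon, the full-length start and end of Chrna7, and both starts of Scn3b with the 164-base exon. The end of Bche-202, 3 inner Scn8a starts and the end of Scn8a-215 were also listed in every library. For Scn2a and Scn3a no event was listed in all 7.

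In gene level, none of the targets that could be counted differed 2-fold from control on the log2(FPKM + 1) scale, although control Bche was 2.36 times that with DDT as a plain ratio. Of the 9 genes, 2 (Bche and Chrna7) had a mean of at least 1 FPKM and start and end totals that lay within 0.3 of each other on the log2 scale, and 0 of these 2 reached 2-fold in any of the 6 comparisons. Of all genes that passed the same criteria, 1.72% reached it with chlorpyrifos, 1.77% with DDT, 1.62% with rotenone, 2.05% with carbaryl, 1.74% with deltamethrin and 1.72% with imidacloprid. Counting only genes that were lower, the shares were 0.99% with chlorpyrifos, 0.957% with DDT, 0.893% with rotenone, 1.22% with carbaryl, 1.01% with deltamethrin and 0.877% with imidacloprid. At these shares a count of 0 of 2 says nothing particular about the targets. Between pairs of exposed libraries 1.70% to 2.16% of genes reached 2-fold.

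In start use, taken over annotated starts, 8 of 21 values that could be compared with control moved by at least 20 percentage points. With chlorpyrifos it was 3 of 4 genes (Ache by 57.4 points, Scn3b by 40.2 and Scn8a by 78.3), where 21.4% of all genes moved. Carbaryl moved 2 of 3 (Scn3b by 44.3 points and Scn8a by 49.2), where 21.6% of all genes did. Imidacloprid moved 2 of 4 (Ache by 73.0 points and Scn8a by 78.3), where 21.1% did. Deltamethrin moved 1 of 4 (Scn8a by 57.0 points), where 21.2% did. DDT and rotenone moved 0 of 3 each, where 21.3% and 20.7% of all genes moved. Between pairs of exposed libraries 19.74% to 21.25% of genes moved as far, so comparisons with control had about the same share as comparisons without it. Of genes with start totals of 1 to 10 FPKM, the range of these targets, 26.3% to 27.8% moved as far against control. The 21 values reuse the same few genes and 1 control library, so they are not independent. They are not read as an excess among the targets.

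**Figure D5:**
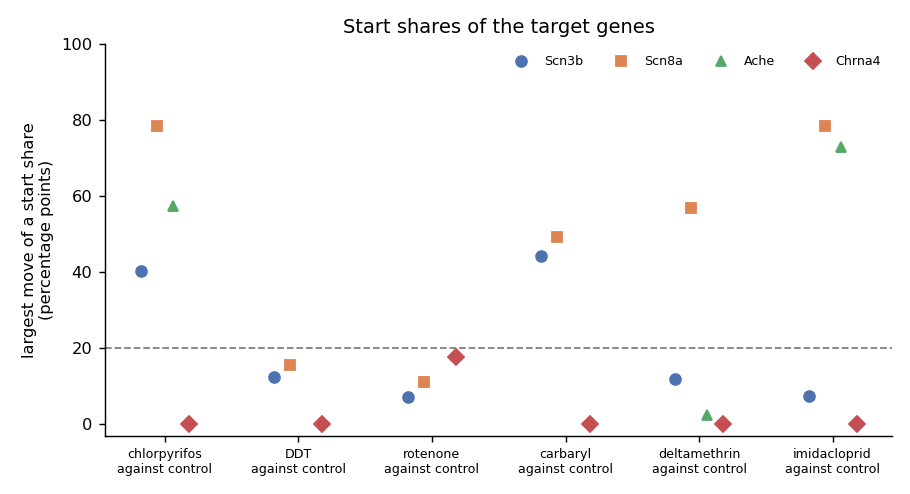
Largest move of a start share against control, in percentage points, for each gene with at least 1 FPKM of starts in both libraries, for the 6 insecticides. The dashed line is at 20 points, and Scn8a lies above it with 4 of the 6 insecticides.

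In exon inclusion, 1 of 15 values moved by at least 20 points, the Scn8a exon 18N with imidacloprid at 0% against 100% in control. Of all exons with 1 FPKM in both libraries, 12.5% moved as far with imidacloprid, 12.8% with chlorpyrifos, 12.5% with DDT, 12.1% with rotenone, 12.6% with carbaryl and 12.7% with deltamethrin. At these shares a count of 1 of 15 says nothing particular about the targets.

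Of the other cholinergic genes, those that averaged at least 1 FPKM over the 7 libraries were helpers of the receptors and the choline transporter-like gene Slc44a1. No other receptor gene did, though Chrna3, with a mean of 0.348 FPKM, had 1.11 FPKM in control. A list of 30 names (Nacho is another name of Tmem35a) covers acetylcholine synthesis, other receptor subunits, muscarinic receptors, anchors of the esterase and receptor chaperones. Of these names 26 have an annotated gene of several exons, and 13 had a start or end matched to exactly 1 gene. By another measure, an event of any kind under the own ID, 12376 of 20620 protein-coding genes of several exons were listed. On the list, 6 averaged at least 1 FPKM, and 4 could be counted, with 0 at 2-fold in any comparison. Of all genes 1.62% to 2.05% reached 2-fold, so a count of 0 of 4 says nothing particular about these genes. The median difference of those counted lay between -0.11 with chlorpyrifos and 0.05 with imidacloprid, where the median of all genes was 0.00 to 0.01. Tmem35a, a chaperone of alpha 7 receptors, had 46.3 to 50.5 FPKM in the exposed libraries and 49.7 FPKM in control. Ric3, another such chaperone, had 3.62 to 4.54 FPKM in the exposed libraries and 4.20 FPKM in control. Lynx1, Ly6h and Ly6e, relatives of snake toxins that bind nicotinic receptors, averaged 7.58, 24.9 and 18.2 FPKM over the 7 libraries. Prima1, the membrane anchor of Ache in brain, was listed with deltamethrin only, at 0.490 FPKM.

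Of 22 other sodium channel genes, their partners and the splicing factors that act on such exons, 16 had a start or end. There were 10 that averaged at least 1 FPKM and 5 that could be counted, with 0 at 2-fold in any comparison. Of all genes 1.62% to 2.05% reached 2-fold, so a count of 0 of 5 says nothing particular about these genes. The median difference of those counted lay between -0.15 with DDT and -0.03 with carbaryl. Rbfox2, a splicing factor of nerve and muscle cells, had 26.5 to 35.6 FPKM in the exposed libraries and 37.1 FPKM in control. Nova2, a neuronal splicing factor, had 8.81 to 11.3 FPKM in the exposed libraries and 9.91 FPKM in control. Fgf13, which binds the tail of sodium channels, had 4.38 to 8.05 FPKM in the exposed libraries and 7.90 FPKM in control. Rbfox3 and Nova1 averaged 2.88 and 6.21 FPKM. No other pore of the family reached 1 FPKM.

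Of 26 other proteins that these insecticides bind or that break them down, 23 had a start or end, 16 averaged at least 1 FPKM and 7 could be counted. Among these 7, the GABA receptor subunit Gabrb2 was the only one at 2-fold in any comparison, and the others of the 26 were not counted. Gabrb2 had 0.0947 FPKM with chlorpyrifos against 2.04 FPKM in control. Of all genes, 0.99% were lower by 2-fold or more with chlorpyrifos. In the other exposed libraries Gabrb2 had 1.40 to 2.20 FPKM. The list's median difference lay between -0.19 with rotenone and 0.07 with deltamethrin.

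The genes with levels most like those of the 3 most abundant targets were found among 4656 genes of at least 5 FPKM, by Pearson correlation of log2(FPKM + 1) over the 7 libraries. For Scn3b these were Ubr7 (r = 0.977), Fzd3 (0.962) and Myh9 (0.956), for Chrna4 they were Casp9 (0.970), Ap1m1 (0.962) and Arl5a (0.940), and for Scn8a they were Src (0.943), B4galt4 (0.943) and Gar1 (0.922). These are the highest of 4656 values over 7 points that share a library's depth, and they describe a likeness only.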

How the data were processed

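Total RNA from 7 cultures was sequenced, 1 library per group, and groups were taken from the sample titles. The submitters' processing notes name HISAT2 2.0.1, cutadapt 1.9.1 and bcl2fastq 2.17.1.14, and the build GRCm38. For the deposited FPKM, the tool was not given in the sources used here. Per the file headers, the authors' files hold 1 FPKM value for each event. They hold no counts, so depth is unknown and intervals are not given.

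Repeated lines were dropped. Target events were taken by Ensembl ID, and some of them are not reported here. For the background, starts and ends were matched to GENCODE M21 on GRCm38 through the splice site next to the terminal exon, and 95.3% of starts and 95.5% of ends matched exactly 1 gene. A gene's value was the mean of its start total and its end total. Genes entered comparisons where these differed by at most 0.3 (log2) and averaged at least 1 FPKM, which left 6168. Another 1791 had ends that disagreed, 2511 a start only and 259 an end only. Folds are differences of log2(FPKM + 1), given as called at 2-fold, and none is given against a value listed at 0. Shares count as moved at 20 percentage points, with at least 1 FPKM in both libraries.

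The 9 genes, the other lists and the thresholds were chosen with earlier results of these data known. All 9 are named, with up to 8 genes per list and the 3 most alike genes for the 3 most abundant targets. With 1 library a group nothing was tested. The steps were tested on simulated data (Python 3.11.15, pandas 2.3.3, numpy 2.4.6). Other pseudocounts, minimums, gene values and references were tried.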

Additional observations from a re-analysis of the deposited data

How the results depend on the processing

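Of 84 values of Bche and Chrna7 against control under other settings, 81 moved by less than the spread of the libraries. The other 3 were Chrna7 with DDT, at -0.32 from starts only, 0.15 from ends only and 0.15 from the larger end. The sign changed in 5, of which 2 were those last values of Chrna7 with DDT. The others were Chrna7 with carbaryl (-0.11, against 0.005 by ends only and by the larger end) and Bche with rotenone (0.05, against -0.005 by the median of the other libraries). Some of the 84 could not move. Leaving out the minimum does not alter a value, and Bche has equal start and end totals. With a pseudocount of 0.1 FPKM, 1 target (Bche with DDT) was 2-fold lower, where 3.34% of genes were at 2-fold. With the larger end of every gene, 2 of 8 targets (Scn8a and Scn3a) reached 2-fold with chlorpyrifos, where 3.06% of genes did. In the order chlorpyrifos, DDT, rotenone, carbaryl, deltamethrin and imidacloprid, the genes at 2-fold numbered 106, 109, 100, 126, 107 and 106. They were 195, 206, 188, 197, 188 and 179 with a pseudocount of 0.1 FPKM, 327, 322, 304, 330, 296 and 313 with the larger end of all genes, and 58, 58, 48, 62, 60 and 53 against the median of the other 6 libraries. With a minimum of 5 FPKM in place of 1, genes with a moved start share numbered 851, 834, 793, 821, 804 and 815, against 1315, 1306, 1278, 1328, 1309 and 1294. Moved exons then numbered 712, 726, 692, 716, 741 and 743, against 1503, 1464, 1421, 1478, 1501 and 1461. With the minimum of 5 FPKM fewer genes and exons entered. The larger end changed both the genes entered and their values, and for it, the pseudocount and the median the cause was not tested. Of 45 start share moves of the targets under other settings, 43 stayed on the same side of 20 points. The exceptions were Scn8a with DDT (56.8 points) and with rotenone (46.8 points) against the median of the other libraries. A minimum does not alter a share, so only the values against that median could move. No paired analysis was possible because each group has 1 library, and for the same reason no replicate could be left out. The unknown depth limits what can be said of events not listed, above all those of Scn2a, Scn3a and Ache.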

Other observations

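The cultures held the glutamate decarboxylases Gad1 and Gad2 and the vesicle transporter Slc32a1 of inhibitory neurons, whose summed FPKM was 18.6 to 22.1 in the exposed libraries and 18.2 in control. The transporter Slc17a6 of excitatory neurons had 0.974 to 1.59 FPKM in the exposed libraries and 1.07 FPKM in control. Olig2, a factor of oligodendrocyte precursors, had 110 to 169 FPKM in the exposed libraries and 161 FPKM in control. The synaptic vesicle protein Syt1 had 11.6 to 14.7 FPKM in the exposed libraries and 3.07 FPKM in control, with all 6 exposed libraries above control. Stmn2, whose start and end totals disagreed, shared this, at 22.97 to 42.16 FPKM in the exposed libraries and 20.02 FPKM in control. Map2, Rbfox3, Elavl3, Elavl4, Snap25 and Dcx did not, each with an exposed library below control. Snap25 had 6.83 to 8.93 FPKM in the exposed libraries and 7.41 FPKM in control. Dcx had 22.8 to 27.2 FPKM in the exposed libraries and 26.5 FPKM in control. These markers were looked at after the values had been seen, and their part in the target genes' values was not tested.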
